A study of Mus musculus with 4 samples.

Results

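The cytosolic ribosomal protein genes encode the proteins of the large and small subunits of the ribosome outside mitochondria. They were taken from the count table by symbol: Rpsa, and every symbol of Rpl, Rps or Rplp followed by a number. After the number could come only an optional letter (a, l, x or y), an optional l for a like gene and an optional digit. Symbols ending in -ps and a number, which mark pseudogenes, were left out. The rule found 90 of the 51098 genes of the table. GENCODE M21 annotates 84 of them as protein coding and 6 as pseudogenes. By role, 46 encode proteins of the large subunit and 31 proteins of the small subunit, together called core genes here, 10 are paralogs or like genes, and 3 are further pseudogenes (Rps12l1, Rpl32l and Rpl6l). The core lists also hold 3 genes whose symbols lie outside the rule, which makes 80 core genes. Levels are CPM, the count of a gene per 1000000 counts of its column, and genes were compared with each other only in CPM per kilobase of transcript.

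RNA was sequenced from E15.5 mouse stomachs, taken from embryos homozygous for the LacZ allele of the growth factor gene Fgf9 (Fgf9LacZ/LacZ, called Fgf9_null) or carrying that allele on 1 chromosome (Fgf9LacZ/+, called Fgf9_het). Each group had 2 samples, numbered 2 and 3. The Fgf9_het samples are titled WT, although they too carry the LacZ allele, and whether a sample came from 1 embryo or several is not given. No label names the strain or the site of the LacZ insertion. The columns summed to 19537211 and 22713416 estimated counts for Fgf9_null, against 19269851 and 22425865 for Fgf9_het. The same-numbered columns of both labels held nearly the same counts: over genes with at least 10 counts in sum, a chi-square value divided by its degrees of freedom was 0.00079 for number 2 and 0.0039 for number 3, leaving out 4 genes (Rn7s1, Rn7s6, Gm19220 and Gm26461) chosen after their values were seen, against 5.52 between numbers 2 and 3 of Fgf9_null. Their differences were smaller than sampling noise, and each such pair was counted as 1 sample. The 4 columns are thus 2 libraries, library 2 and library 3, each present under both genotype labels, and which genotype each has cannot be told from these columns. Fgf9 itself had 133 counts in number 2 and 131 counts in number 3 under either label. Of the stomach markers, 10 of 10 epithelial genes and 7 of 7 mesenchymal genes had 1 CPM or more, with list sums of 6629 and 4702 CPM. That threshold alone does not mark out stomach. It was also reached by 4 of 5 liver genes and 6 of 7 skeletal muscle and heart genes, with list sums of 45.9 and 30.6 CPM.

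A ribosome carries 1 copy of nearly every ribosomal protein, with the P stalk proteins as the exception, so cells make most of these proteins in like amounts. Their mRNAs are short and abundant, and most begin with a C followed by a run of C and T, the terminal oligopyrimidine tract, through which mTOR and LARP1 set how much of each mRNA is translated. Because the mRNAs are abundant in the germ line, they have been copied back into the genome many times as intronless retrocopies, most of which are annotated as processed pseudogenes.

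Retrocopies of some of these genes have many counts in rows of their own, so the sequences of 3 genes and their copies are shown first (GENCODE M21 transcripts, GRCm38). Rps27, a small subunit protein with a zinc finger, lies on chromosome 3 (90212522 to 90213651, minus strand) and its retrogene Rps27rt on chromosome 9 (114982366 to 114982739, minus strand). Their coding sequences of 252 bases are the same at every base, so 1 line stands for both. The paralog Rps27l, on chromosome 9 (66946086 to 66949516, plus strand), differs at 60 of the 252 bases, which are in capitals.
Rps27 and Rps27rt: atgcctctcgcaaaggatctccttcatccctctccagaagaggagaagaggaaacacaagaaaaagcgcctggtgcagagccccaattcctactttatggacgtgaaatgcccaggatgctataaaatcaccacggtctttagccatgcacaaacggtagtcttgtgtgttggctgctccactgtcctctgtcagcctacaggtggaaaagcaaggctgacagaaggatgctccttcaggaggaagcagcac
Rps27l: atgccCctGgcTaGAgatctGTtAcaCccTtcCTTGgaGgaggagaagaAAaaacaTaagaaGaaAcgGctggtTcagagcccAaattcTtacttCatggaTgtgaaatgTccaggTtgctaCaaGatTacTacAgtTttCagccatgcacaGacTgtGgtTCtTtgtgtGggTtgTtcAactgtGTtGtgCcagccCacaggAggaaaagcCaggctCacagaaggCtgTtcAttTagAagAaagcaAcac

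Rpl34, a large subunit protein gene on chromosome 3 (130726831 to 130730398, minus strand), and its copy Rpl34-ps1 on chromosome 6 (71124610 to 71124963, plus strand) differ at 2 of 351 coding bases. Rpl35a, on chromosome 16 (33056453 to 33060189, plus strand), and its copy Rpl35a-ps2 on chromosome 1 (181241988 to 181242320, minus strand) differ at 1 of 330. The stretches that hold the differences are given, with the differing bases in capitals.
Rpl34: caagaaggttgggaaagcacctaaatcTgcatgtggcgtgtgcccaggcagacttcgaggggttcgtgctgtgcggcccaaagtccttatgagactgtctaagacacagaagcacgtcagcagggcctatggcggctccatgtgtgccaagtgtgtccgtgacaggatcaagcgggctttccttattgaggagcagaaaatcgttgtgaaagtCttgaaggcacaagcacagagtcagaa
Rpl34-ps1: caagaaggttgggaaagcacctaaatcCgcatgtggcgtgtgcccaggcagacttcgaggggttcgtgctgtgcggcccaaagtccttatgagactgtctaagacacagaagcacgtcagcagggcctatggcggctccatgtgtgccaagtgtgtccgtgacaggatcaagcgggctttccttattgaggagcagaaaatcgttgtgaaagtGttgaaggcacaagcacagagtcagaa
Rpl35a: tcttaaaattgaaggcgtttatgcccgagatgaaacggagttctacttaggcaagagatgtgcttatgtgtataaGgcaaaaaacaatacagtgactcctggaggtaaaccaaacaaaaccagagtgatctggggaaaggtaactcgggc
Rpl35a-ps2: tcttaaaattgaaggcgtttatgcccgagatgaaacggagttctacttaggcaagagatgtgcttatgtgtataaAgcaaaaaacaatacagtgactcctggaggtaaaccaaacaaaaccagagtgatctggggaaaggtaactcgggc

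No ribosomal protein gene was called between the genotype labels. Rplp0, the base of the P stalk, had 1021 and 1027 CPM in the Fgf9_null columns, against 1036 and 1041 CPM in the Fgf9_het columns. Rps2, a small subunit protein where the mRNA enters, had 389 and 218 CPM in Fgf9_null columns 2 and 3, against 395 and 221 CPM in Fgf9_het columns 2 and 3. Rps2 thus followed the column number far more than the label, while the 4 columns of Rplp0 lay close together, the Fgf9_null columns slightly lower before any scaling factor. A gene was called where edgeR's quasi-likelihood test gave a Benjamini-Hochberg adjusted p under 0.05. Of the 90 genes, 83 passed the filter on low counts and 0 were called, and all 83 had an adjusted p of 1 in edgeR; over all genes tested, 0 of 19987 were called (0%). An unadjusted p under 0.05 was reached by 0 ribosomal protein genes and 4 genes in all. Their median log2 fold, Fgf9_null over Fgf9_het, was -0.00047, and the largest departure from 0 was 0.0033. DESeq2 called 3 of 29597 genes (0.0101%) and 0 of 87 ribosomal protein genes. The edgeR fit blocked on replicate number called 6 of 19987 genes (0.03%) and 0 of the 83. Since each library stands under both labels, the comparison holds no information on what loss of Fgf9 does to these genes.

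**Figure D1:**
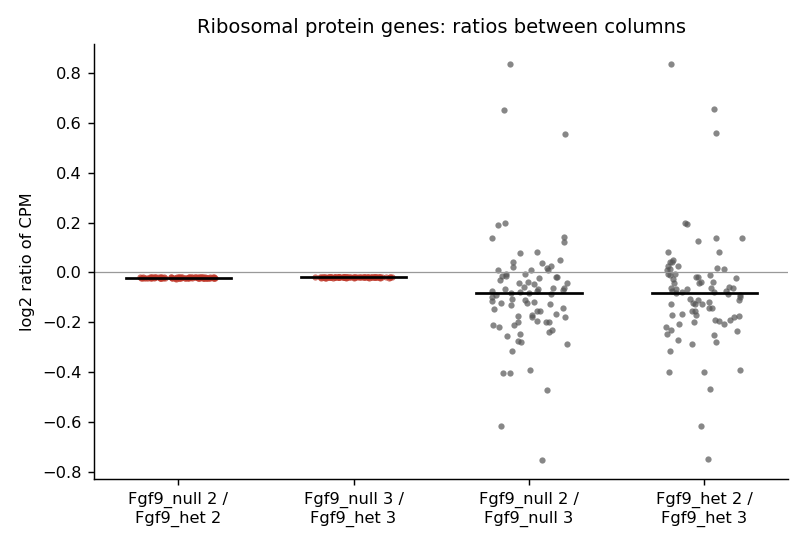
Log2 ratio of CPM between pairs of columns (vertical axis) for the 83 ribosomal protein genes at a mean of 1 CPM or more; each point is a gene and the bar is the median. Points of the same number lie together near 0 for Fgf9_null over Fgf9_het, with medians of -0.020 and -0.019 before any scaling factor, while columns 2 over 3 spread from -0.75 to 0.84.

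All 77 core genes of the rule were detected at 1 CPM or more in both libraries. The 90 genes summed to 21620.0 CPM in library 2, against 22824 CPM in library 3 (22222 ± 851, SD, n = 2 libraries), which is 2.16% and 2.28% of all counts. Large subunit genes gave 12796 ± 619 CPM and small subunit genes 9079 ± 215 CPM. The 10 most abundant genes held 27.6% of the sum. Per kilobase of the longest principal transcript, the median core gene of the rule stood at 313 CPM per kb, against 12.2 CPM per kb for the 10392 coding genes with a mean of 10 CPM or more. Of the 77, 70 lay above the 95th percentile of those coding genes, 72.4 CPM per kb.

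The highest level per kilobase belonged to Rplp1, an acidic P stalk protein, with 1022 CPM per kb in library 2 and 1240.3 CPM per kb in library 3 (1131 ± 154). Rpl41, the shortest ribosomal protein, followed at 893 ± 62 CPM per kb, and Rplp0 at 759 ± 2.7 CPM per kb. The rest of the 10 highest, among them Rps15, Rpl23a, Rps12, Rps29, Rpl36 and Rps26, lay between 527 and 639 CPM per kb. Rplp1 stood above Rpl41 in both libraries on this length. On the shortest principal transcript Rpl41 stood first, at 1190 CPM per kb, and Rplp1 second, at 1131. The coding sequence of Rpl41, on chromosome 10 (128548114 to 128549305, minus strand), has 25 codons before its stop and is shown whole.
Rpl41: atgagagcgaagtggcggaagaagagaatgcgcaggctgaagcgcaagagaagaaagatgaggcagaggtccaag

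At the other end stood core genes at a small share of that level. Rps27 had 3.81 CPM in library 2, against 5.27 CPM in library 3, or 13.2 CPM per kb. Rpl5, which carries 5S rRNA into the ribosome with Rpl11, stood at 15.3 CPM per kb, Rpl12 at 32.4, Rps15a at 44.4 and Rpl10 at 49.2. The level of Rps15a depended on the length taken: its longest principal transcript has 5179 bases, and on the shortest, of 640 bases, it was 360 CPM per kb. Which of its transcripts the reads came from was not tested. The other 4 stayed low on either length, between 13.2 and 52.6 CPM per kb.

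For those 4, most of the counts of the gene and its retrocopies together stood in the rows of the retrocopies. A copy was defined as a gene at another place whose transcript matches a core or like gene at 95% identity or more over at least 80% of its coding sequence. There were 559 copies, of which 197 had no count and 59 a mean of 1 CPM or more. Of the 59, 50 are annotated as processed pseudogenes, 5 of these as transcribed, and 9 as protein coding, and 1, Rps12l1, is itself among the 90 genes. The copies summed to 4837 CPM in library 2, against 5232 CPM in library 3. Only 19 of the 59 carry a -ps symbol, so a symbol search does not find most of them.

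Rps27rt had 125 CPM in library 2, against 129 CPM in library 3, and the copies held 96.5% of the Rps27 family, which is the gene and its copies together. Gm15500 had 394 and 389 CPM in libraries 2 and 3 and the copies 92.6% of the Rpl5 family. For Rpl10, a protein near the peptidyl transferase centre, Rpl10-ps3 had 408 CPM in library 2, against 440 CPM in library 3, against 44.1 and 40.00 CPM for the gene, and the copies held 91.0% of the family. For Rpl12, at the base of the P stalk, Gm10275 had 356 and 393 CPM and the copies held 90.3%. All 4 of these copies match the coding sequence of their gene at every base. Copies held over 50% of the counts in 11 of 80 core families, among them also Rps23, Rpl27a, Rpl3, Rps2, Rps18 and Rpl35. They held over 10% in 29 families and under 1% in 40.

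With the copies added, the lowest genes moved into the range of the others. Rps27 stood at 381 CPM per kb as a family, Rpl5 at 207, Rpl12 at 334 and Rpl10 at 546. The number of the 80 core genes within 2-fold of their median level per kilobase was 70 for families and 56 for genes alone. The highest exceeded the lowest 25.3-fold for families and 85.9-fold for genes alone. On the shortest principal transcript, the same counts were 69 for families and 61 for genes alone. How the authors' counting divided reads between a gene and its copies was not tested, so the level of any gene with a large share in copies is uncertain.

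**Figure D2:**
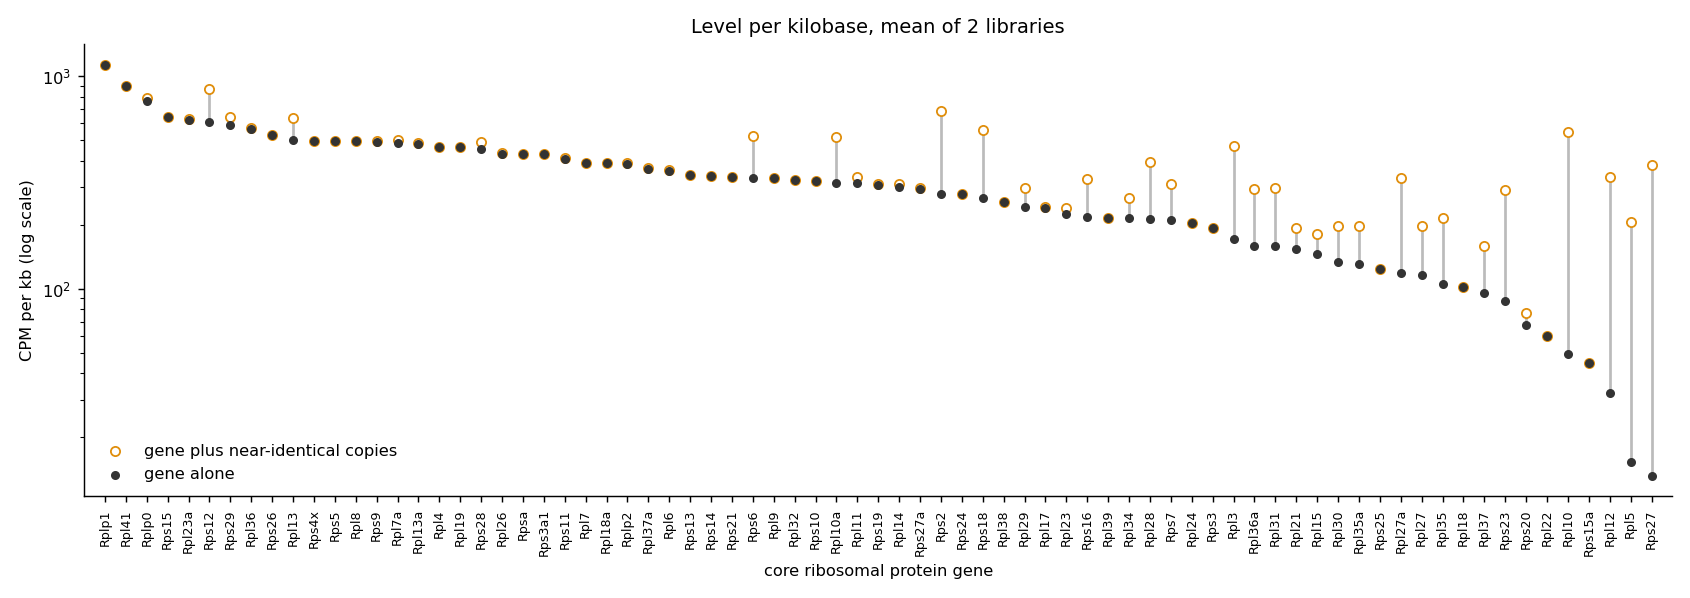
Level per kilobase (CPM per kb, log scale, mean of 2 libraries) of 75 core genes of the rule, ordered by the level of the gene alone; filled points are the gene, open points the gene plus its near-identical copies, and a line joins both. At the right, Rpl10, Rpl12, Rpl5 and Rps27 stand at 13.2 to 49.2 CPM per kb alone and at 207 to 546 CPM per kb with copies.

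Library 2 was set against library 3 as a description, since each is 1 sample and no test is possible. Most ribosomal protein genes were slightly lower in library 2: 64 of the 83 genes at 1 CPM or more (77.1%), against 45.6% of the 17143 genes at that level. Their median log2 ratio, library 2 over library 3, was -0.083, and that of all genes 0.018. The difference of 1.5-fold was passed by 4 of the 83, against 5.14% of all genes at 1 CPM or more. Among the 10862 genes at 10 CPM or more the share was 1.12%, and the 4 genes all had means above 10 CPM. Of the 4, 2 were higher in library 2, against 3.36% of all genes at 1 CPM or more, and 2 were lower, against 1.78%. The 4 genes were Rps2 with a log2 ratio of 0.84, Rpl35a with 0.65, Rpl34 with -0.75 and Rpl36a with -0.62. Rps18 and Rps25 at 0.56 and 0.20, and Rpl5 at 0.19, came next upward. Rps4l and Rps7 at -0.40, and Rpl3 at -0.39, came next downward among genes with at least 100 counts in each library.

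Of the genes with the largest ratios, Rps2, Rpl34 and Rpl35a had copies that ran the other way, and Rpl36a did not. Rps2 had 392.2 CPM in library 2, against 219.6 CPM in library 3, while its copies had 356 and 535 CPM, and the family ratio was -0.01 on the log2 scale. Rpl34 had 99.5 CPM in library 2, against 167 CPM in library 3, while Rpl34-ps1 had 65.2 and 1.18 CPM, and the family ratio was -0.03. Rpl35a had 82.5 and 52.4 CPM in libraries 2 and 3, Rpl35a-ps2 12.9 and 54.9 CPM, and the family ratio was -0.17. The 3 genes thus moved apart between libraries by an amount that nearly vanished, or turned its sign, in the sum over the family. Rpl36a had 60.8 CPM in library 2, against 93.2 CPM in library 3, its copies 63.3 and 67.3 CPM, and the family ratio was still -0.37.

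The same held for Rps18, a protein of the small subunit head, at 179 CPM in library 2, against 121 CPM in library 3, with copies at 113 and 213 CPM and a family ratio of -0.19. It held for Rps7, at 172 CPM in library 2, against 228 CPM in library 3, with Gm6472 at 122 and 66.5 CPM and a family ratio of -0.003. Rpl3 had 201 and 263 CPM in libraries 2 and 3, with Rpl3-ps1 at 418 and 383 CPM and a family ratio of -0.06. Rplp0 showed the reverse. The gene had 1029 and 1034 CPM in libraries 2 and 3, its copy Gm8730 had 0.29 and 69.7 CPM, and the family ratio was -0.10. Over the 80 core genes, the log2 ratios of genes alone had an SD of 0.23 and ran from -0.75 to 0.84, and those of families an SD of 0.11 and ran from -0.37 to 0.20. A 1.2-fold difference was passed by 5 of 80 families and 13 of 80 genes alone. Over the 17143 genes at 1 CPM or more it was passed by 21.5%. Only 10862 of those reached 10 CPM, and the share at the level of the core genes was not computed. Among the 5 families were those of Rpl36a, Rplp1, Rpl26 and Rpl37, chosen for naming after their values were seen, and all 5 were lower in library 2.

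**Figure D3:**
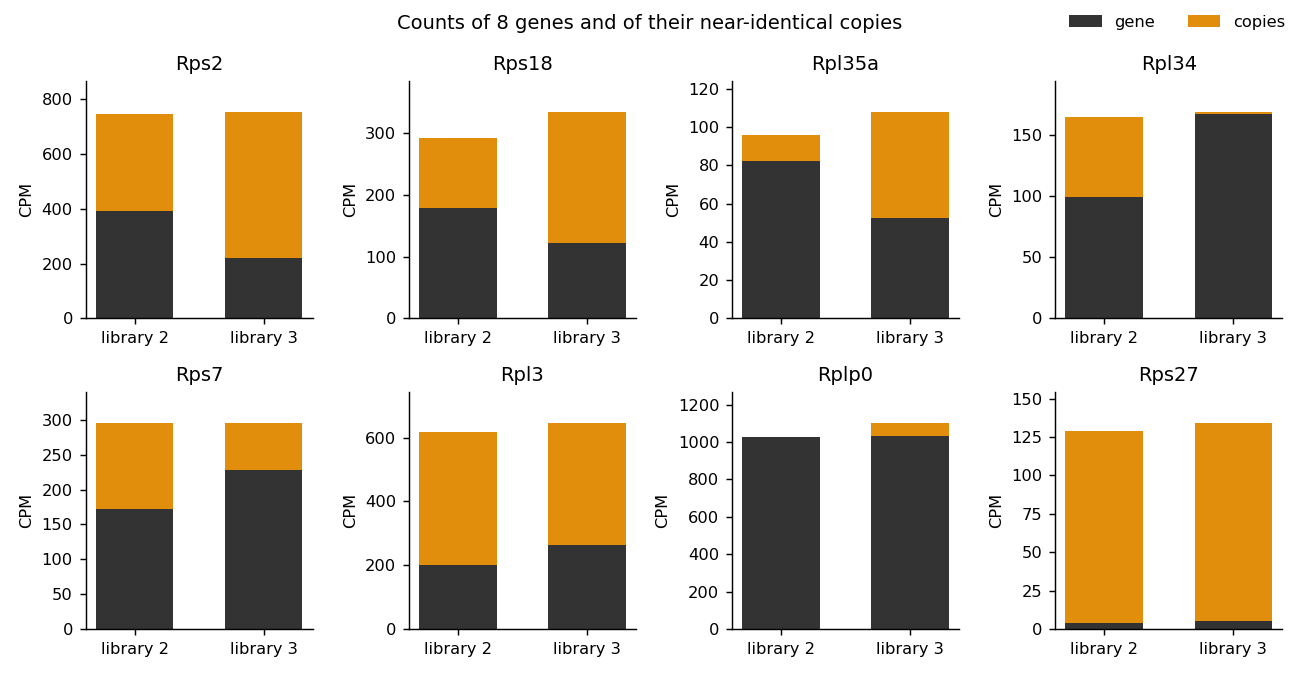
CPM of 8 genes (dark) and of their near-identical copies (orange, stacked) in library 2 and library 3, with 1 sample for each bar. The share of the gene differs between libraries for Rps2, Rps18, Rpl35a, Rpl34, Rps7 and Rpl3 more than the height of the whole bar does, and for Rps27 nearly the whole bar is copies.

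**Figure D4:**
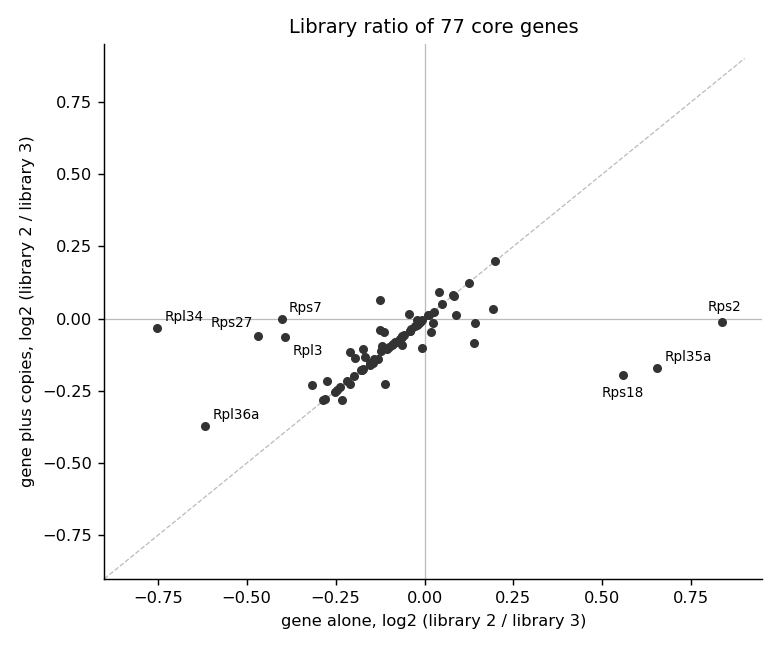
Log2 ratio of library 2 over library 3 for 77 core genes, alone (horizontal axis) and with their copies (vertical axis); the dashed line marks equal values. Rps2, Rps18, Rpl35a and Rpl34 lie far from 0 alone and between -0.19 and -0.01 as families.

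Copies whose coding sequence differs from that of their gene varied more between libraries than identical copies. Among copies with a mean of 10 CPM or more, 19 match their gene at every aligned base and 18 differ by at least 1 base. The 1.5-fold difference was passed by 10 of the 18 differing copies and 0 of the 19 identical ones, against 1.12% of all 10862 genes at that level and 18.1% of 144 other processed pseudogenes. The median absolute log2 ratio was 0.67 for differing copies and 0.11 for identical copies. Those past 1.5-fold include Gm8730, Rpl34-ps1, Rpl35a-ps2, Gm10288, Gm8210, Gm10260, Gm6472 and Rps2-ps10. A filter on the mean admits copies that are high in only 1 library, such as Gm8730 and Rpl34-ps1, which raises this count. At a mean of 1 CPM or more, 15 of 39 differing copies and 0 of 20 identical ones passed 1.5-fold, against 5.14% of all genes. Their median absolute log2 ratios were 0.39 and 0.11. The split into differing and identical copies was made after the values were seen, and the genomes of the embryos were not analysed here.

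The small general difference between the libraries was not confined to ribosomal protein genes. Other coding genes at 10 CPM or more with transcripts of up to 1500 bases had a median log2 ratio of -0.066 (1113 genes, 67.4% lower in library 2), and ribosomal protein genes of that length -0.084 (52 of 68 lower). The sets were not matched in length: 699 of the other genes, but 18 of the ribosomal protein genes, had 1001 to 1500 bases. Ribosomal protein genes had the lower median at up to 500 bases (-0.20 against -0.14) and at 1001 to 1500 (-0.085 against -0.046). They had the higher median at 501 to 750 bases (-0.074 against -0.13) and at 751 to 1000 (-0.051 against -0.096). Other coding genes over 3000 bases had a median of 0.023. The part of transcript length in the result was not tested. Markers of other cells moved too: 6 of 6 erythroid genes at 1 CPM or more were lower in library 2, with a sum over the list of 1149 CPM in library 2, against 1583 CPM in library 3. All 4 liver genes at 1 CPM were lower, with list sums of 34.7 and 57.2 CPM, and 5 of 5 squamous genes were higher, with 511 and 281 CPM. Of the 6 skeletal muscle and heart genes at 1 CPM, 5 were higher, with list sums of 34.3 and 26.9 CPM. Among all genes at 1 CPM or more, 45.6% were lower in library 2. Of the 5 pancreas genes, Ins2, Prss1 and Ptf1a were at 0, Cela1 had 3.66 and 4.96 CPM and Cpa1 0.82 and 0.71 CPM in libraries 2 and 3. The part of these cells was not tested, and in bulk RNA fewer cells of a type and less RNA per cell cannot be told apart.

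**Figure D5:**
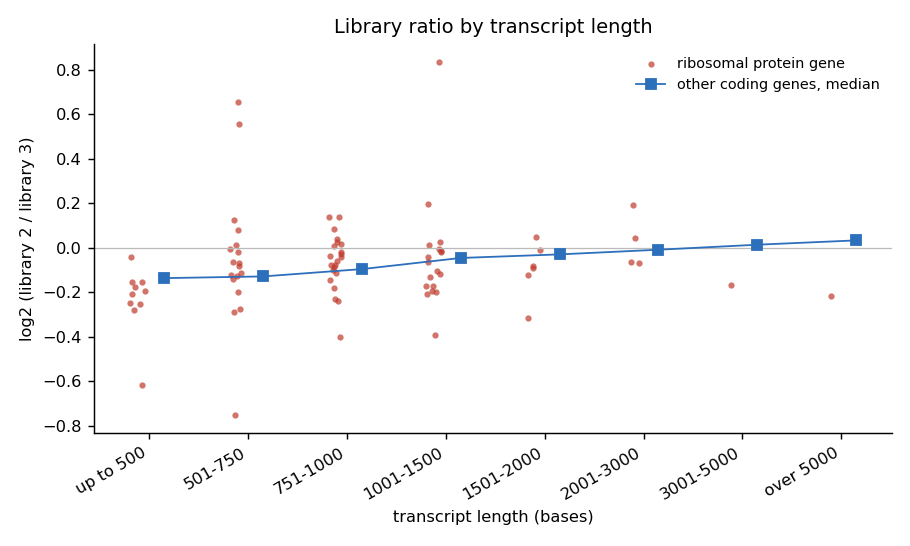
Log2 ratio of library 2 over library 3 (vertical axis) by class of transcript length in bases (horizontal axis); red points are coding ribosomal protein genes and blue squares the median of other coding genes, all with a mean of 10 CPM or more. The blue medians lie at -0.14 for transcripts of up to 500 bases and at 0.033 for those over 5000 bases.

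By role, the P stalk genes, whose proteins call elongation factors to the ribosome, were all lower in library 2 (4 of 4). Of all 83 ribosomal protein genes 77.1% were lower, and Rplp0 was nearly level, at 1029 and 1034 CPM in libraries 2 and 3. Rplp1 had 510.1 CPM in library 2, against 619 CPM in library 3, and Rplp2 340 and 401 CPM. The 5S rRNA partners, which hold the p53 inhibitor Mdm2 when ribosome assembly fails, had slightly more counts in library 2 when taken alone, with Rpl11 at 262 and 259 CPM and Rpl5 at 33.3 and 29.1 CPM in libraries 2 and 3. With copies, the Rpl11 family was slightly lower in library 2, at 274 CPM against 283 CPM in library 3, and the Rpl5 family had 427 and 418 CPM. Of the 9 genes around the exit tunnel of the nascent chain, 6 were lower when taken alone. Rpl35 was higher alone, at 104 and 94.2 CPM in libraries 2 and 3, but its family had 202 and 204 CPM. Rpl4, whose loop lines the tunnel, had 724 and 700.1 CPM in libraries 2 and 3, and Rpl23a, at the rim where the signal recognition particle docks, 324 and 372 CPM. Rpl22, Rpl17, Rpl19, Rpl26, Rpl31, Rpl35 and Rpl39 lay between 59.7 and 462 CPM per kb.

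Of the 5 genes along the mRNA path, 4 were lower in library 2 when taken alone, beside 77.1% of the 83 ribosomal protein genes. Rps2 alone was the exception, but its family had 748 and 754 CPM in libraries 2 and 3. Rps3 was nearly level, at 364 and 367 CPM. Rpsa, also known as a laminin receptor, had 805 CPM in library 2, against 852 CPM in library 3 and was the second most abundant of the 90 genes after Rplp0. Rps26 and Rps28, at the mRNA exit, stood at 527 and 455 CPM per kb, and Rps3, at the entry, at 192 CPM per kb.

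Loss of 1 copy of certain ribosomal protein genes causes Diamond-Blackfan anaemia in humans. Of the mouse counterparts of the human disease genes, Rps26, Rps10, Rpl11, Rps19 and Rps24 stood between 278 and 527 CPM per kb and had under 10% of their family counts in copies. Others had more: Rps7 had 32.4%, Rpl35a 33.8% and Rpl5 92.6%. In mice, mutations of Rps19 and Rps20 darken the skin, one of Rpl24 gives belly spot and tail, and one of Rpl38 gives a short tail with altered Hox mRNA translation. Rps19 had 245 CPM in library 2, against 231 CPM in library 3, Rps20 236 and 265 CPM, Rpl24 144 and 132 CPM, and Rpl38 110.1 and 125 CPM.

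The like genes at 1 CPM or more lay between 25.4 and 44.4 CPM per kb, at the level of the lowest core genes counted alone. Of these core genes, Rps27 had 13.2, Rpl5 15.3, Rpl12 32.4 and Rpl10 49.2 CPM per kb alone, and 207 to 546 CPM per kb with copies. The level of some like genes depended on the length taken: on the shortest principal transcript, Rpl36al stood at 108 and Rpl7l1 at 50.6 CPM per kb. Rpl7l1, a nucleolar assembly protein, had 67.3 CPM in library 2, against 65.3 CPM in library 3, and Rpl36al 52.7 and 60.5 CPM. Rpl22l1, the paralog of Rpl22, had 22.9 and 22.8 CPM, or 41.4 CPM per kb against 59.7 CPM per kb for Rpl22. On the shortest principal transcript, Rpl22 stood at 258 CPM per kb and Rpl22l1 still at 41.4 CPM per kb. Rps27l, a target of p53 in human cells, had 17.5 and 20.03 CPM. Rps4l, a transcribed pseudogene by the annotation, had 26.9 and 35.5 CPM. The genes known from testis or muscle were at the limit of detection. Rpl10l, of the male germ line, had 0 counts in either library, which allows up to 0.155 CPM in library 2, against 0.133 CPM in library 3. Rpl39l, also of the germ line, had 2 and 1 counts, with exact Poisson 95% intervals of 0.24 to 7.22 and 0.025 to 5.57 counts. Rpl3l, of striated muscle, had 1 and 0 counts. Rps3a2 and Rpl6l had 0 counts and Rps3a3 and Rpl32l averaged 0.17 and 0.40 CPM, which completes the 7 genes under 1 CPM. The intervals and floors cover counting error only.

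The start sites of these genes were looked at for the run of C and T. RefSeq (GRCm38.p6) windows of 250 bases before and 50 after a start matched 65 of the 90 genes, with 77 entries, since some genes have several starts that overlap. A C followed by at least 6 bases that are each C or T lay on the gene's strand between 20 bases before and 25 after the start in 39 of 77 entries (50.6%), against 20.6% of all 32851 entries. CCGGAAG, the core of an ETS family motif, lay on either strand anywhere in the window in 27 entries (35.1%), against 8.86% of all. TATAAA did so in 8 (10.4%), against 13.6%, and CCAAT in 23 (29.9%), against 37.4%. The reverse of CCGGAAG can overlap a run of C and T. The motifs were chosen after the sequences had been seen, a match is a description of letters only, and translation was not measured here.

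Runs of C and T that open an mRNA are known from mRNAs under mTOR control. Of the 6 genes with the longest runs, the run of Rpl13a begins after the annotated start and the other runs begin before it. How much of each run lies in the mRNA was not tested. The 6 windows are shown from 35 bases before to 25 after the annotated start, with the run in capitals. They lie at chr7:109519160-109519219 (plus strand) for Rpl27a, chr3:130730313-130730372 (minus) for Rpl34, chr2:26910772-26910831 (plus) for Rpl7a, chr2:39005107-39005166 (minus) for Rpl35, chr14:18270962-18271021 (minus) for Rpl15 and chr7:45128721-45128780 (minus) for Rpl13a.
Rpl27a: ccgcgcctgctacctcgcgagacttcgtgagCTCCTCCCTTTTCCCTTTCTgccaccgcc
Rpl34: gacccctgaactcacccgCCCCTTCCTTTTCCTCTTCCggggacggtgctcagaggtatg
Rpl7a: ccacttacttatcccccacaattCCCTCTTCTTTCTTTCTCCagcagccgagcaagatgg
Rpl35: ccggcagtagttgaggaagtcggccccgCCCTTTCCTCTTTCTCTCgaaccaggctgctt
Rpl15: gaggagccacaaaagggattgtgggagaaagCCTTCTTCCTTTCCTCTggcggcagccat
Rpl13a: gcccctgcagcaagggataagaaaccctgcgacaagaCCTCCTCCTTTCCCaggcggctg
Rpl13a had 501 CPM in library 2, against 506 CPM in library 3, Rpl7a 435 and 453 CPM, and Rpl15 267 and 291 CPM.

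Other genes known to carry the C and T run were read beside these. Of 16 translation factors and partners, 15 were lower in library 2, with a median log2 ratio of -0.12, beside -0.083 for the ribosomal protein genes. Eef1a1, which brings tRNA to the ribosome, stood at 2473 ± 145 CPM per kb and Tpt1 at 755 ± 46 CPM per kb, above the median of the core genes. Of all genes at 1 CPM or more, 45.6% were lower in library 2. None of the 16 translation genes was called between the labels.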

How the data were processed

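Ribosomal RNA was removed from stomach RNA with RNase H, and random-primed paired reads of 150 bases were made, per the labels' protocols. Tools named in the submitters' processing notes are Salmon 1.8.0, Trimmomatic 0.33, edgeR and FastQC 0.10, with GRCm38 and mm10 as builds. Not given in the sources used here are the annotation, the strand setting and the handling of reads that match several genes. The authors deposited estimated counts for each Ensembl gene, without scaling for depth. It has 2 further columns without a name, which were not used. The members and lists were chosen with earlier results of these data known.

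Levels are CPM of the column total, averaged over the 2 columns of a library, with mean ± SD over n = 2 libraries. Replicate numbers pair columns of 1 library: deviations of same-numbered columns correlated at 0.9996 over genes at 1 CPM. Labels were compared with edgeR 4.0.16 in R 4.3.3 (counts rounded, TMM, filterByExpr, quasi-likelihood F test, Benjamini-Hochberg adjustment). The fit was tested on simulated data with independent columns. How it behaves on nearly identical columns, as here, was not tested. The p-values reflect spread between these columns alone, which may be technical. Transcript lengths and coordinates are from GENCODE M21, which held all 90 genes. Copies were found with blastn 2.17.0 (e-value 1e-10) and assigned to the gene they match best, leaving out genes that overlap it. Named genes are the 10 highest and 5 lowest core genes per kilobase, the genes of the role lists, the 5 largest library ratios each way, and 2 genes of each other list; genes named beyond these were chosen after their values were seen. DESeq2 1.42.0, limma 3.58.1, other scalings, filters, lengths and columns left out were alternatives. Results of 3 genes are counted in the totals but not reported here by name, nor drawn in the plots of the levels per kilobase and of the library ratios of core genes.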

Additional observations from a re-analysis of the deposited data

How the results depend on the processing

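The count of ribosomal protein genes called between the labels was 0 in every setting run. Over all genes it was 3 with DESeq2, 6 with the replicate block, under which same-numbered columns are paired, and 1 to 2 without 1 of the 4 columns. The median log2 fold of the ribosomal protein genes ran from -0.053 to 0.052 without 1 column, where the lone column is assumed to vary like the others. Their summed level was 26775 CPM over totals without structured RNAs, 24754 CPM with -ps symbols, 27106 CPM with near-identical copies (an alternative added after the data were seen), and 21620.0 to 22824 CPM in 1 library. The median log2 ratio of library 2 over library 3 stayed negative: it was -0.074 over totals without structured RNAs, -0.11 with TMM factors, -0.076 with -ps symbols, -0.078 with no minimum and -0.082 at 10 CPM or more. The median core level per kilobase was 134 CPM per kb over the union of exons, 382 with 150 bases taken off, 279.6 on the longest coding transcript, 377 without structured RNAs, 311 to 315 in 1 library and, as added alternatives, 358 on the shortest principal transcript and 344 with copies. Copies at 90% or 98% identity left the count of families past 1.2-fold at 5. Over 53 named genes, none of 528 label folds crossed the threshold, while 50 of 159 levels and 105 of 212 levels per kilobase moved by more than the SD between libraries. The limits are the 2 libraries, whose genotype cannot be told apart, the choice of transcript length, and the division of reads between genes and copies, which was not tested.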

Other observations

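Genes that serve ribosome assembly had a median log2 ratio, library 2 over library 3, of -0.03, beside -0.083 for the ribosomal protein genes. Of 29 such genes, 17 were lower in library 2, beside 45.6% of all genes at 1 CPM or more. Fbl, the methyltransferase of small nucleolar particles, had 57.2 CPM in library 2, against 68.0 CPM in library 3, and Nop56, of the same particles, 83.6 and 83.5 CPM. Of 6 chaperones that escort single ribosomal proteins, 4 were lower, with Bccip, which escorts Rpl23, at 23.8 ± 1.9 CPM and Grwd1, which escorts Rpl3, at 19.7 ± 1.8 CPM (SD, n = 2 libraries).

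Genes of mTOR and of the C and T run had a median log2 ratio of 0.007, with 5 of 12 lower in library 2. Larp1, which binds the start of these mRNAs, had 272 CPM in library 2, against 259.6 CPM in library 3, and Eif4ebp2 223 and 218 CPM. The 78 genes of mitochondrial ribosomal proteins summed to 1518 CPM in library 2, against 1547 CPM in library 3, with 47 of them lower in library 2 and a median level of 12.1 CPM per kb. Among all genes at 1 CPM or more, 45.6% were lower in library 2. The differences of these lists between the libraries were not tested.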
